A study of Arabidopsis thaliana with 15 samples.

Results

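Cytochrome P450 and UDP-glycosyltransferase (UGT) genes of Arabidopsis roots were followed through a parabolic flight. The genes were chosen by symbol, as rows of the array table annotated to exactly 1 gene named CYP or UGT with a digit after these letters, and the brighter row was taken where a gene had more than 1. This gave 79 of 16550 genes tested. The reference annotation names 2 of them as cyclophilins (CYP59 and CYP71, protein-folding enzymes that share the letters CYP), so 26 P450 genes and 51 UGT genes remained, 77 in all. The 51 UGT genes compare with 58 UGT symbols in that annotation. Other UGT genes carry no UGT symbol there and fall outside the rule, among them AT1G06000 (UGT89C1) and AT2G36780 (UGT73C3). The P450 genes are a narrow sample, since 21 of the 26 belong to the subfamily CYP71B and the annotation holds 237 P450 symbols. The other P450 genes are not analysed here.

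P450 enzymes are heme proteins of the endoplasmic reticulum that insert oxygen into small molecules, using electrons from a reductase partner. They build hormones, lignin precursors and defence compounds, and they break down foreign chemicals. UGT enzymes move a sugar from a UDP-sugar onto hormones, phenolic compounds or toxins, which commonly makes the product more soluble and ready for storage in the vacuole. In roots both families act in defence metabolism, in hormone balance and in detoxification. Many members lie side by side as copies of a common ancestor, so their names follow sequence families rather than pathways.

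The samples were 15 pools of whole roots from seedlings 10 days old. All groups shared the Wassilewskija background and the transgene pCaMV35S:14-3-3κ:GFP, in which the viral 35S promoter, active in most plant tissues, drives a fusion of a 14-3-3 regulatory protein with green fluorescent protein. Seedlings were fixed with RNAlater aboard a C-9 aircraft, and fixation took place in level flight before the manoeuvres in 4 pools, after parabola 1 in 4 pools, after parabola 3 in 4 and after parabola 10 in 3. Each parabola combines raised and reduced gravity, and the study compared fixation after parabolas with fixation in level flight to find genes tied to this flight pattern. No group without the transgene is among the samples. The pools of a group came from 1 fixation tube, so the spread between arrays is that of pools within a tube, and tube, time aboard and number of parabolas cannot be told apart.

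Values are log2 expression after the authors' RMA normalization on AraGene 1.0 ST arrays, and differences are log2 fold changes. Array medians over the tested genes lay between 3.65 and 3.70, and arrays of a group correlated at 0.989 to 0.994. Of the root markers listed, 3 of 18 were measured. PYK10, a beta-glucosidase abundant in roots, had means of 12.5 to 12.6 in the 4 groups. EXPA7, a root hair expansin, rose by 0.55 at parabola 3 (adjusted p = 0.0145) and by 0.81 at parabola 10 (adjusted p = 0.0012). EXPA18, the third marker, had means of 6.53 in level flight and 6.51, 6.31 and 6.55 at parabolas 1, 3 and 10. It had no adjusted p under 0.05 against level flight. The summed linear signal of these 3 genes ranged from 5875 to 6256 in level flight and from 6071 to 7110 at parabola 1. It ranged from 5724 to 6257 at parabola 3 and from 6476 to 6700 at parabola 10. PYK10 makes up most of this sum, since the group means of EXPA7 and EXPA18 were 5.67 to 6.55. Of the leaf photosynthesis genes listed, 3 of 19 were measured. Their summed signal ranged from 81.3 to 91.6, 87.4 to 102, 80.2 to 107 and 84.5 to 132 in the same order. SBPASE among them rose by 0.68 at parabola 10 (adjusted p = 0.0123). LHCB4.1 and RCA differed there by 0.03 and 0.33, with no adjusted p under 0.05. None of the 3 leaf genes was at 0, and their part in the results below was not tested. In whole roots, fewer cells of a type and less RNA per cell cannot be told apart.

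Against level flight, 10 of the 77 P450 and UGT genes were called changed at parabola 1 (limma, adjusted p under 0.05), where 8.33% of all tested genes were. Of these, 3 rose and 7 fell, beside a background of 3.47% higher and 4.85% lower. At parabola 3 there were 15 called genes, 8 higher and 7 lower, beside 11.2% of all genes, with 4.48% higher and 6.69% lower. At parabola 10 there were 17, 7 higher and 10 lower, beside 14.6% of all genes, with 7.53% higher and 7.11% lower. The median change over the 77 genes was 0.00, 0.05 and 0.07 at parabolas 1, 3 and 10, and over all genes it was 0.01, 0.03 and 0.04. With arrays centred on 4 reference genes instead, the split of higher to lower calls was 0 to 8, 4 to 8 and 5 to 12. That centring moved the median change over all genes as well, to -0.07, -0.03 and -0.03. It gave 1328, 1697 and 2132 calls over all 16550 genes, whose split into higher and lower was not counted.

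The groups did not overlap for 11 of the 77 genes at parabola 1 (14.0% of all genes), for 13 at parabola 3 (15.8%) and for 23 at parabola 10 (24.2%). In limma's F-test, which asks of each gene whether any parabola group differed from level flight, 21 of the 77 genes passed, beside 15.7% of all genes. In total 23 genes were called in at least 1 contrast, beside 19.9% of all genes, and 54 in none. They were 17 UGT genes and 6 P450 genes, of which 5 were CYP71B. None was called higher in 1 contrast and lower in another: 13 were only ever called higher and 10 only ever lower. Called in all 3 contrasts were 7 genes (4.72% of all genes), UGT72E1, UGT73B1, UGT73B3, UGT73B5, UGT89B1 and CYP71B34 as lower and CYP71B37 as higher. The 3 contrasts share the level flight arrays, so their calls are not independent of each other.

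**Figure D1:**
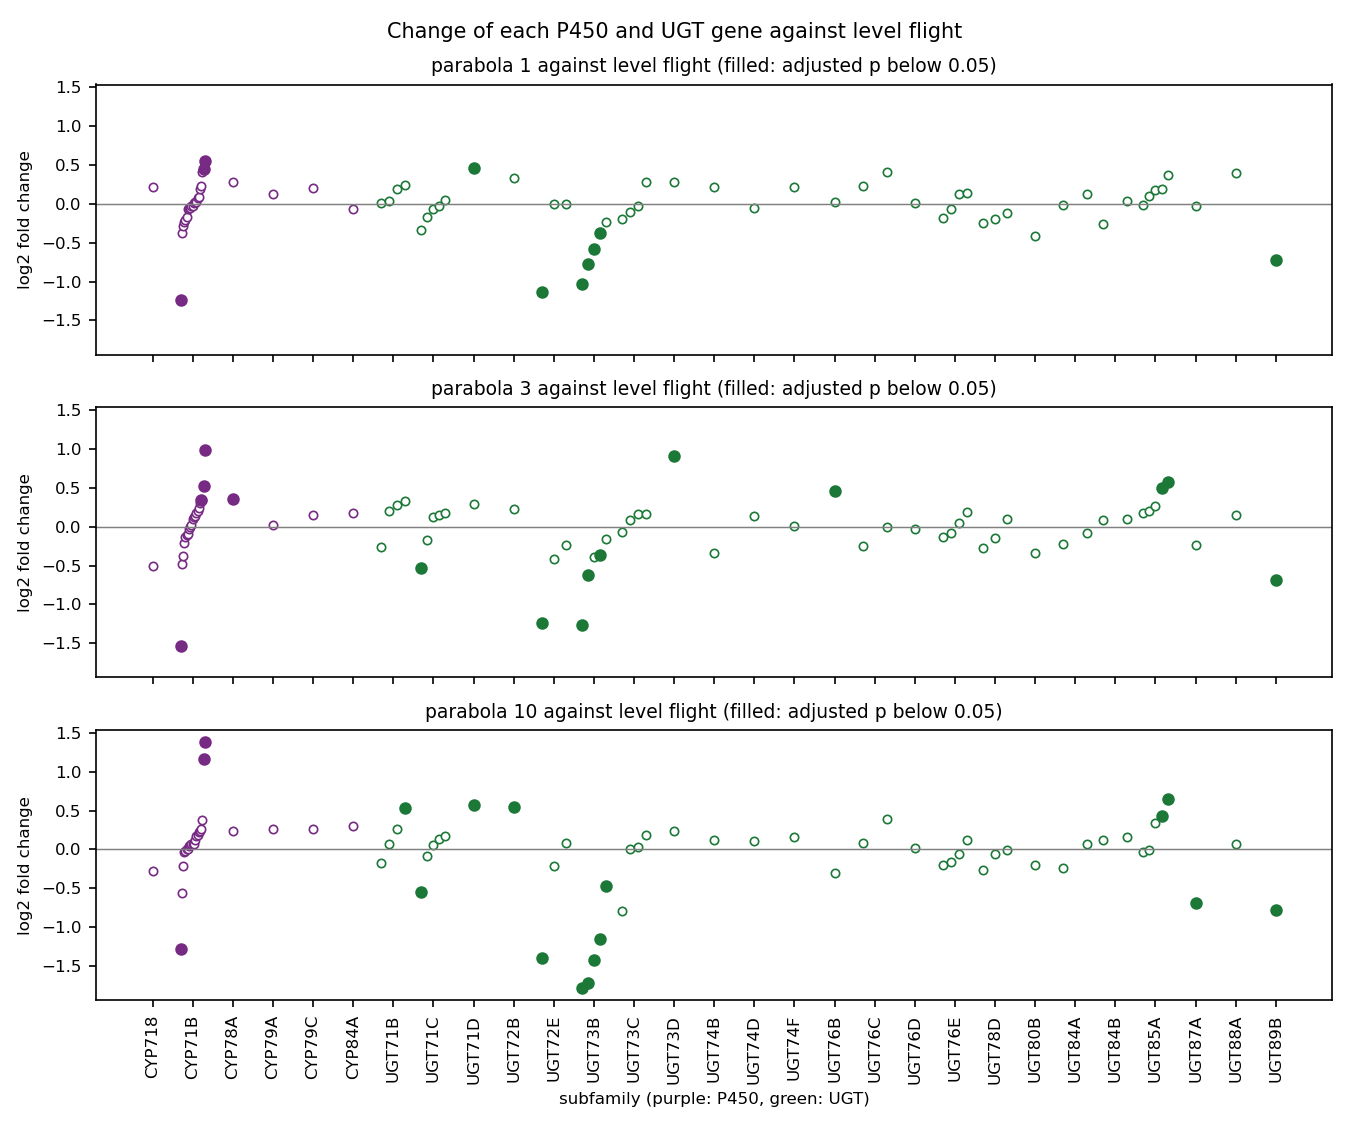
Log2 fold change of each of the 77 P450 and UGT genes (y axis) by subfamily (x axis), with 1 panel per parabola group against level flight; filled points were called by limma at an adjusted p under 0.05. The 5 UGT73B genes lie below 0 in every panel and reach -1.78 at parabola 10, while the CYP71B genes spread to both sides.

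Among subfamilies with at least 3 measured genes, UGT73B was the one with every member called lower after parabola 10. Its 5 genes are stress-responsive enzymes: UGT73B3 and UGT73B5 are known from pathogen defence, UGT73B4 from conjugating foreign nitroaromatic compounds, and UGT73B2 for glucosylating flavonoids in vitro. At parabola 10 all 5 were called lower, with a median of -1.42. At parabola 1 there were 4 of 5 called lower (median -0.58), and at parabola 3 there were 3 of 5 (median -0.39). Over all genes, 4.85%, 6.69% and 7.11% were called lower at parabolas 1, 3 and 10.

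UGT73B5 (AT2G15480) read 6.58, 6.28, 7.03 and 6.99 in the 4 level flight arrays. After parabola 1 it read 5.90, 5.88, 5.94 and 6.08, and after parabola 3 it read 6.42, 5.73, 6.17 and 6.09. After parabola 10 it read 4.99, 4.78 and 5.04. The parabola 10 arrays thus lay below every other array, whereas 1 parabola 3 array reached into the level flight range. The change was -0.77 ± 0.16 (SE) at parabola 1 (adjusted p = 0.00394), -0.62 ± 0.16 at parabola 3 (adjusted p = 0.0156) and -1.78 ± 0.17 at parabola 10 (adjusted p = 1.25e-06), the last being 3.44-fold lower. It fell further between parabola 3 and parabola 10, by 1.16 on the log2 scale (adjusted p = 0.00178).

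Its neighbour UGT73B4 (AT2G15490) stayed near its level flight values at first. The level flight arrays read 7.88, 7.38, 7.65 and 7.95, the parabola 1 arrays 7.41, 7.64, 7.42 and 7.45, and the parabola 3 arrays 7.71, 7.16, 7.51 and 7.85. After parabola 10 the values were 6.37, 6.44 and 6.08, below all 12 other arrays. The differences at parabolas 1 and 3 were -0.24 and -0.16 and did not pass the test, while that at parabola 10 was -1.42 ± 0.16 (adjusted p = 6.58e-06). The step from parabola 3 to parabola 10 was itself called, at -1.26 ± 0.16 (adjusted p = 0.000942), and so was that from parabola 1, at -1.18 ± 0.16 (adjusted p = 0.00058).

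UGT73B3 (AT4G34131) differed by having most of its decrease already at parabola 1. It read 5.26, 4.83, 5.46 and 5.25 in level flight, then 4.25, 4.41, 3.91 and 4.09 at parabola 1. The parabola 3 arrays read 4.45, 3.43, 4.03 and 3.85, and the parabola 10 arrays 3.50, 3.13 and 3.81. All 11 arrays after parabolas lay below all level flight arrays. The changes were -1.04 ± 0.19, -1.26 ± 0.19 and -1.72 ± 0.21 at parabolas 1, 3 and 10 (adjusted p = 0.00178, 0.000244 and 1.48e-05).

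UGT73B2 (AT4G34135) read 4.93, 4.64, 4.86 and 4.92 in level flight and 4.11, 4.26, 4.34 and 4.32 at parabola 1. At parabola 3 it read 4.68, 4.06, 4.38 and 4.67, so that 2 arrays returned into the level flight range, and at parabola 10 it read 3.85, 3.53 and 3.70. The parabola 1 and parabola 10 differences passed, at -0.58 ± 0.13 and -1.15 ± 0.14 (adjusted p = 0.00695 and 1.48e-05), and that at parabola 3 did not (-0.39, adjusted p = 0.058). Parabola 10 was below parabola 3 by a called difference, -0.75 ± 0.14 (adjusted p = 0.0108). UGT73B1 (AT4G34138), which can glucosylate abscisic acid in vitro, moved least of the 5 at parabola 10. Its values were 6.97, 6.80, 7.02 and 6.64 in level flight, 6.45, 6.53, 6.43 and 6.53 at parabola 1, 6.66, 6.36, 6.55 and 6.41 at parabola 3, and 6.44, 6.51 and 6.21 at parabola 10. The changes of -0.37, -0.36 and -0.47 were all called (adjusted p = 0.0346, 0.0346 and 0.00895), although the groups overlapped at parabola 3.

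**Figure D2:**
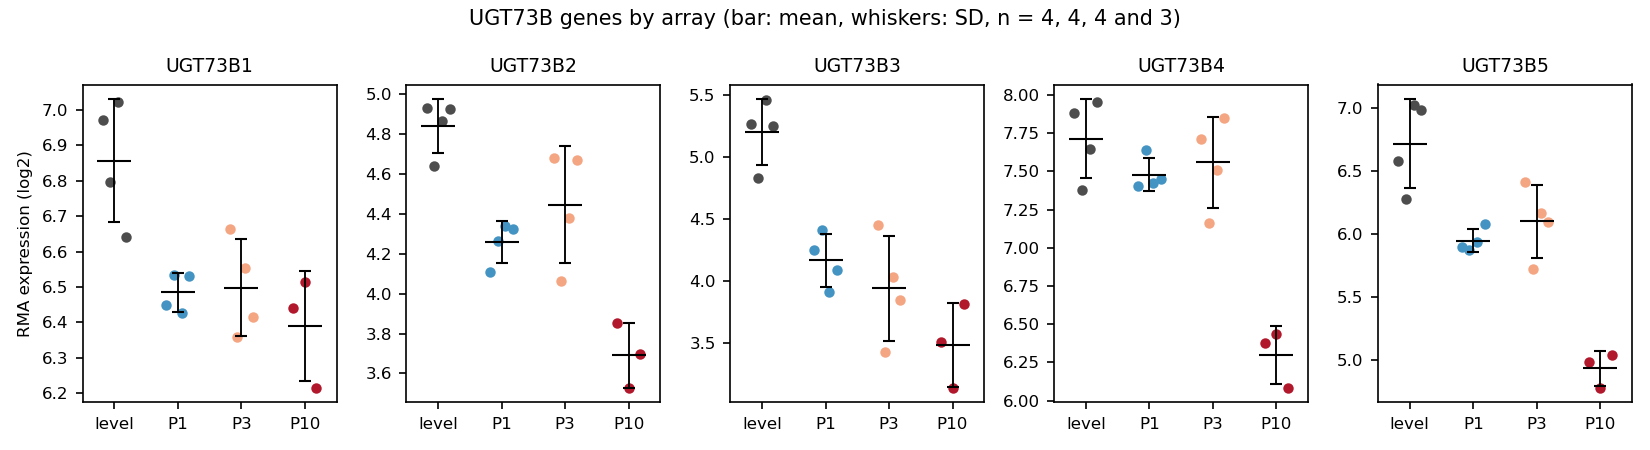
RMA expression (log2, y axis) of the 5 UGT73B genes in every array by group (x axis), with level flight, parabola 1 (P1), parabola 3 (P3) and parabola 10 (P10); the black bar is the mean and the whiskers the SD (n = 4, 4, 4 and 3). The parabola 10 arrays of UGT73B4 lie between 6.08 and 6.44, below its other arrays, whereas UGT73B3 is already below level flight at parabola 1.

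Within groups, the order of the arrays was alike for the 5 genes in some groups and not in others. Array 2 held the lowest value of its group for 5 of 5 genes at parabola 3 and for 4 of 5 in level flight. At parabola 1 the lowest value lay in array 1 for 2 genes, in array 2 for 1 and in array 3 for 2. At parabola 10 array 2 was lowest for 3 genes and highest for the other 2. By order in the reference annotation, UGT73B5 and UGT73B4 are direct neighbours on chromosome 2, and UGT73B3, UGT73B2 and UGT73B1 are direct neighbours on chromosome 4. Whether probes of a gene also bind a neighbour's transcript was not tested, as probe sequences were not used here.

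The list for detoxification and oxidative stress had 17 genes, of which 7 were measured and carry a CYP or UGT symbol in the annotation, namely the 5 UGT73B genes, UGT87A2 and CYP71B23. These 7 held 0 higher and 4 lower calls at parabola 1, 0 and 3 at parabola 3, and 0 and 6 at parabola 10. Over all genes 4.85%, 6.69% and 7.11% were called lower. Apart from UGT87A2 at parabola 10, the calls are those of the UGT73B genes given above. The median of the 7 was -1.15 at parabola 10, beside 0.04 over all genes. GSTU25, a tau-class glutathione transferase that acts on some of the same foreign compounds, was measured beside them. It differed by -0.46 at parabola 1, which did not pass, and fell by 0.84 at parabola 3 and by 2.14 at parabola 10 (adjusted p = 0.0296 at parabola 3). CYP71B23 differed by 0.00 at parabola 10. The locus AT2G36780 (UGT73C3 on the same list), which has no gene symbol in the annotation, differed by -0.24, -0.12 and -0.17 and was not called.

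UGT72E1 (AT3G50740), which glucosylates monolignol aldehydes, fell at once and stayed low. Level flight arrays read 6.72, 6.59, 7.23 and 6.87. The parabola 1 arrays read 5.50, 5.82, 5.74 and 5.82, the parabola 3 arrays 5.60, 5.39, 5.77 and 5.68, and the parabola 10 arrays 5.38, 5.44 and 5.56. No array after a parabola reached the level flight range. The changes were -1.13 ± 0.13, -1.24 ± 0.13 and -1.39 ± 0.14 (adjusted p = 1.44e-05, 4.53e-06 and 1.97e-06), and no difference between parabola groups was called.

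Its relatives UGT72E2 and UGT72E3, which act on monolignols such as coniferyl alcohol, were dim and not called. Their differences ranged from -0.42 to 0.09 over the 3 contrasts. At parabola 3 all 3 UGT72E genes were below level flight on average. The groups did not overlap there for 2 of the 3, UGT72E1 and 1 relative, beside 15.8% of all genes. Of the 19 genes on the list for phenylpropanoids, lignin and flavonoids, 8 were measured and carry a CYP or UGT symbol in the annotation, and among these 8 UGT72E1 was the one called in each contrast. The locus AT1G06000 (UGT89C1 on the same list), which has no gene symbol in the annotation, was also called in each. It fell by 0.70, 0.51 and 0.58 (adjusted p = 0.000277, 0.00377 and 0.002). The loci AT5G54060 (UGT79B1 on the list) and AT4G14090 (UGT75C1), also outside the symbol rule, were not called in these contrasts. Nor did they pass limma's F-test (adjusted p = 0.414 and 0.403). Among the other genes of the 8 were the flavonol glycosyltransferases UGT78D1, UGT78D2 and UGT78D3. Of these, 0 of 3 were called by limma in any contrast against level flight, and 0 had an unadjusted p under 0.05 there. HCT, an acyltransferase of lignin synthesis, differed by 0.10, 0.17 and 0.27 and did not pass either.

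UGT89B1 (AT1G73880), active on benzoates and flavonols in vitro, had a similar course with wider spread. It read 5.75, 5.24, 6.31 and 5.39 in level flight, 5.24, 4.77, 5.13 and 4.67 at parabola 1, 5.13, 4.65, 5.13 and 5.03 at parabola 3, and 4.93, 5.09 and 4.67 at parabola 10. The highest parabola 1 array nearly touched the lowest level flight array. Changes of -0.72, -0.69 and -0.77 were called with adjusted p = 0.0257, 0.0282 and 0.0174. Leaving out parabola 10 array 1 or 3 ended the last call (adjusted p = 0.0502 and 0.0769).

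UGT71C1 (AT2G29750), a glucosyltransferase of phenylpropanoids such as lignans, read 4.92, 5.07, 4.67 and 5.15 in level flight and 4.62, 4.49, 4.58 and 4.76 at parabola 1. The parabola 3 arrays, at 4.34, 4.40, 4.41 and 4.52, and the parabola 10 arrays, at 4.32, 4.52 and 4.39, lay below all level flight arrays. It fell by 0.54 in both (adjusted p = 0.0025 and 0.00316), and the -0.34 at parabola 1 missed the threshold (adjusted p = 0.0548). The other 4 UGT71C genes were not called against level flight.

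UGT87A2 (AT2G30140), known for an effect on flowering time, changed late. Level flight arrays read 8.34, 8.34, 9.01 and 8.28, parabola 1 arrays 8.46, 8.45, 8.60 and 8.35, parabola 3 arrays 8.52, 8.03, 8.07 and 8.39, and parabola 10 arrays 8.06, 7.81 and 7.53. The parabola 10 arrays were below all level flight arrays, by -0.69 ± 0.17 (adjusted p = 0.0105). The third level flight array stood above the rest, and without it the difference was -0.52 (adjusted p = 0.0281). Leaving out the third parabola 10 array ended the call (adjusted p = 0.0603).

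The CYP71B genes are a large P450 subfamily of defence and specialised metabolism in which most members have no assigned reaction. Of the 21 measured, 2 rose and 1 fell at parabola 1, 3 rose and 1 fell at parabola 3, and 2 rose and 1 fell at parabola 10, beside the 8.33%, 11.2% and 14.6% of all genes called. The median over the subfamily was -0.03, 0.09 and 0.07. The signal of 18 of the 21 genes lay below 3.66, the median of all tested genes.

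CYP71B34 (AT3G26300) fell at once. It read 5.91, 5.48, 5.44 and 5.93 in level flight, 4.15, 4.18, 4.90 and 4.56 at parabola 1, 3.94, 4.06, 4.52 and 4.12 at parabola 3, and 5.16, 4.18 and 3.90 at parabola 10. All arrays after parabolas were below all level flight arrays, with the first parabola 10 pool nearest to them. The changes were -1.24 ± 0.23, -1.53 ± 0.23 and -1.28 ± 0.25 (adjusted p = 0.00173, 0.0002 and 0.00164).

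CYP71B37 (AT3G26330) went the other way and rose in all 3 contrasts, most at parabola 10. Its arrays read 2.54, 2.68, 2.71 and 2.71 in level flight, 2.81, 3.19, 3.19 and 3.25 at parabola 1, 3.34, 3.36, 2.85 and 3.19 at parabola 3, and 4.34, 3.94 and 3.83 at parabola 10. The level flight and parabola 10 arrays each lay apart from all others. The gains were 0.45 ± 0.14, 0.52 ± 0.14 and 1.38 ± 0.15 (adjusted p = 0.0481, 0.0173 and 3.64e-06), and parabola 10 exceeded parabola 3 by 0.85 ± 0.15 (adjusted p = 0.00669). CYP71B34 and CYP71B37 belong to 1 run of 6 CYP71B genes on chromosome 3, in the order CYP71B25, CYP71B26, CYP71B34, CYP71B35, CYP71B36 and CYP71B37, whose other 4 genes were not called.

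CYP71B29 (AT1G13100) changed between parabolas 1 and 3. In level flight it read 5.30, 5.74, 5.39 and 5.58, and at parabola 1 it read 5.46, 5.71, 5.81 and 5.39, within much the same range. At parabola 3 it read 6.52, 6.24, 6.58 and 6.59, and at parabola 10 it read 7.22, 6.55 and 6.21, all above both earlier groups. The differences from level flight were 0.09 at parabola 1 (not called), 0.98 ± 0.17 at parabola 3 (adjusted p = 0.000855) and 1.16 ± 0.19 at parabola 10 (adjusted p = 0.000268). The step from parabola 1 to parabola 3 was called, at 0.89 ± 0.17 (adjusted p = 0.0119). Its neighbour CYP71B28 was dim and not called.

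The other P450 changes were smaller, and those against level flight came from dim genes. CYP71B32 rose at parabola 1 by 0.55 (adjusted p = 0.0378), from 1.80 to 2.20 in level flight to 2.37 to 2.65, but leaving out any of 6 single arrays ended the call, among them level flight arrays 1, 2 and 4 and parabola 1 arrays 2, 3 and 4 (largest adjusted p = 0.12). CYP71B24 rose at parabola 3 by 0.34, and so did CYP78A9, a regulator of organ and seed size, by 0.36, in a range of 1.60 to 2.23 where the files give no call of presence. The CYP78A9 call ended without level flight array 2 or 3 or parabola 3 array 2. CYP718, near the median signal, was called in no contrast against level flight but fell from parabola 1 to parabola 3 by 0.72 (adjusted p = 0.0432). That call was lost when 1 of 10 single arrays was left out, namely level flight array 1, parabola 1 array 1, 2 or 3, any parabola 3 array, or parabola 10 array 2 or 3. CYP71B6, which converts an indole nitrile made in defence, had differences of -0.20, -0.48 and -0.56 with no call (smallest adjusted p = 0.0568).

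**Figure D3:**
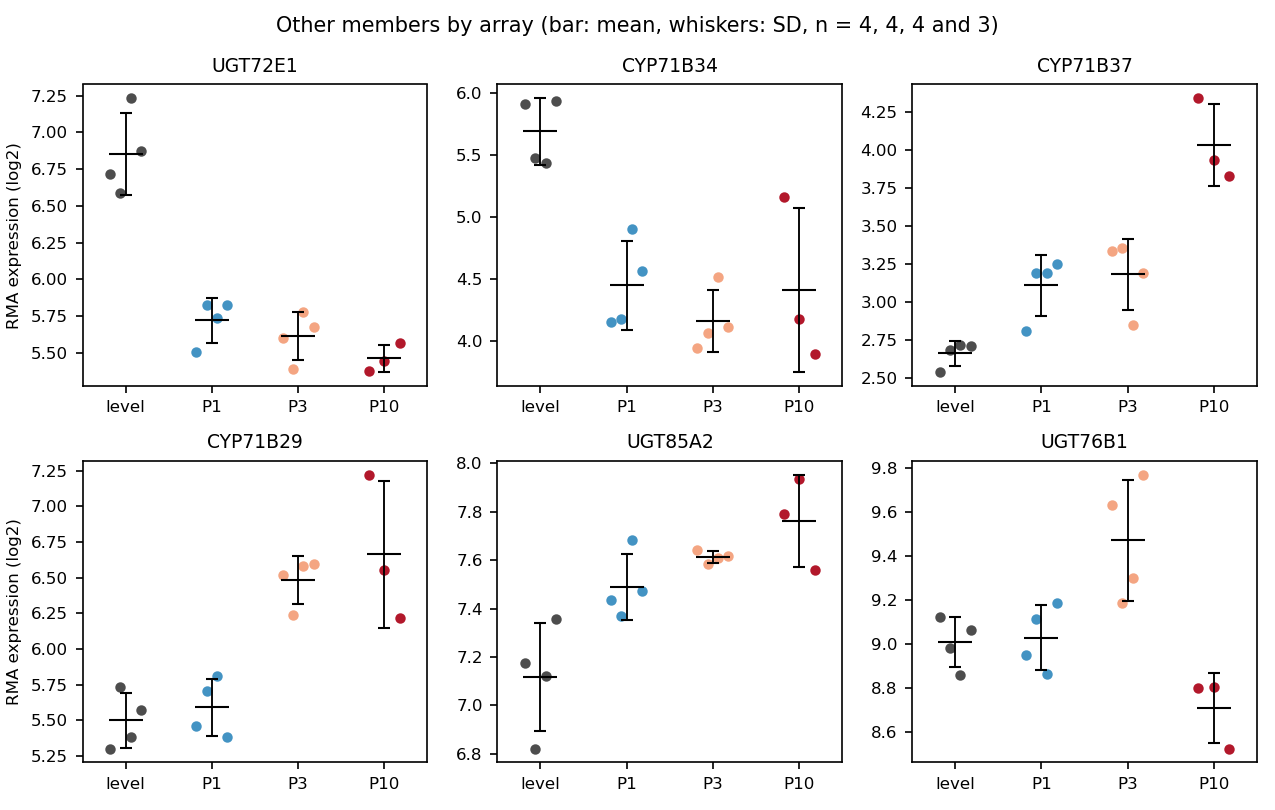
RMA expression (log2, y axis) of 6 genes in every array by group (x axis), drawn with the mean (bar) and SD (whiskers), n = 4, 4, 4 and 3. UGT72E1 and CYP71B34 drop at parabola 1 and stay low, CYP71B37 climbs to between 3.83 and 4.34 at parabola 10, CYP71B29 steps up at parabola 3, UGT85A2 is higher after parabolas and UGT76B1 peaks at parabola 3.

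UGT85A2 (AT1G22360) rose among the UGT genes with strong signal. It read 7.18, 6.82, 7.12 and 7.36 in level flight, 7.44, 7.37, 7.68 and 7.47 at parabola 1, 7.64, 7.58, 7.61 and 7.62 at parabola 3, and 7.79, 7.94 and 7.56 at parabola 10. Each parabola group lay above level flight with no overlap. The gain of 0.37 at parabola 1 missed the threshold (adjusted p = 0.0556), and those of 0.49 ± 0.11 and 0.64 ± 0.12 at parabolas 3 and 10 passed (adjusted p = 0.00882 and 0.00158). In the UGT85A subfamily 2 of 5 genes were called higher at each of parabolas 3 and 10, beside 4.48% and 7.53% of all genes. UGT85A3, in the same run of 4 UGT85A genes on chromosome 1, rose by 0.43 at parabola 10 at low signal (adjusted p = 0.0344), and leaving out level flight array 1 or 3 or parabola 10 array 1 or 3 ended that call.

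UGT85A4 (AT1G78270) had 2 rows in the table that did not give the same picture. The brighter row read 2.95 to 3.08 in level flight and 3.49 to 3.68 at parabola 3, a gain of 0.57 ± 0.12 (adjusted p = 0.00302), and 0.33 at parabola 10 (adjusted p = 0.085). On the other row the parabola 3 difference was 0.10 (adjusted p = 0.679) and that at parabola 10 was 0.42 (adjusted p = 0.0494). Both rows were above level flight on average at both times. The other 4 genes with 2 rows were not called on either row.

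UGT76B1 (AT3G11340) limits defence signalling by glucosylating salicylic acid, N-hydroxypipecolic acid and isoleucic acid. The 4 level flight arrays read 9.12, 8.98, 8.86 and 9.06 and the parabola 1 arrays 8.95, 9.11, 8.86 and 9.19, with no difference called (0.02). At parabola 3 it read 9.63, 9.19, 9.30 and 9.77, above level flight by 0.46 ± 0.13 (adjusted p = 0.0239), and at parabola 10 it read 8.80, 8.81 and 8.52. The 3 parabola 10 arrays lay below all level flight arrays, but that difference of -0.30 was not called (adjusted p = 0.17). The drop from parabola 3 to parabola 10 was called, at -0.76 ± 0.14 (adjusted p = 0.00879). Leaving out level flight array 2 or 3, or parabola 3 array 1 or 4, ended the parabola 3 call (largest adjusted p = 0.0852).

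On the list for auxin and salicylic acid conjugation, UGT76B1 was 1 call among 6 measured UGT genes of 10 listed. UGT74D1 and UGT84B1, which glucosylate auxin, and UGT74F1, which glucosylates salicylic acid, had differences between -0.06 and 0.21 in the 3 contrasts. The GH3 enzymes, which tie auxin to amino acids as another way of inactivation, moved more. GH3.17 differed by 0.45 at parabola 1, which was not called (adjusted p = 0.0681), and fell by 1.13 at parabola 3 and by 0.67 at parabola 10. GH3.3 fell by 0.75 at parabola 1 and by 1.53 at parabola 10, and WES1 (GH3.5) rose by 0.59 at parabola 1.

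UGT71D1 (AT2G29730) rose early. It read 5.67, 5.84, 5.86 and 5.85 in level flight, 6.11, 6.32, 6.40 and 6.24 at parabola 1, 6.40, 6.30, 5.79 and 5.86 at parabola 3, and 6.45, 6.20 and 6.49 at parabola 10. Its parabola 3 arrays split, 2 with the level flight arrays and 2 with the other parabola groups. The gains at parabolas 1 and 10 were called, 0.47 ± 0.13 and 0.57 ± 0.14 (adjusted p = 0.0312 and 0.00882), and that of 0.29 at parabola 3 was not. UGT71D1, UGT71C2 and UGT71C1 form a run on chromosome 2, in which the first rose, the last fell and UGT71C2 was not called.

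UGT73D1 rose at parabola 3 by 0.91 ± 0.25 (adjusted p = 0.0256), with level flight arrays of 4.79 to 5.70 overlapping parabola 3 arrays of 5.52 to 6.39. UGT72B3 rose at parabola 10 by 0.55, from a range of 2.39 to 2.98 to one of 3.14 to 3.43 (adjusted p = 0.0151), and leaving out level flight array 4 or parabola 10 array 2 ended the call. UGT71B5 rose at parabola 10 by 0.54 (adjusted p = 0.0472) with overlapping groups.

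The measured UGT genes on the lists for other hormones were not called in limma's single contrasts against level flight. UGT73B1, described above and called lower in all 3, was not on the abscisic acid list. Cytokinin N-glucosyltransferases UGT76C1 and UGT76C2 and the related UGT73C1 gave 0 of 3 calls in limma's contrasts against level flight, with 2, 1 and 1 at an unadjusted p under 0.05 at parabolas 1, 3 and 10. In the F-test, UGT76C1 and UGT76C2 passed (adjusted p = 0.0311 and 0.0327). UGT76C1 fell from parabola 1 (5.48, 5.28, 5.17 and 5.51) to parabola 3 (4.99, 5.02, 4.69 and 4.85), by 0.48 ± 0.11 (adjusted p = 0.0339). Leaving out parabola 1 array 1, 2 or 4 or parabola 3 array 3 or 4 ended that call. Abscisic acid glucosyltransferases UGT71B6 and UGT71C5 had differences of -0.03 to 0.28 and were not called. Jasmonate-related UGT76E1 and UGT76E2 differed by -0.08 to 0.18, and the sterol glucosyltransferase UGT80B1 by -0.41, -0.33 and -0.19, also with no call. UGT74B1, of glucosinolate synthesis, differed by 0.22, -0.34 and 0.12.

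Between parabola groups, calls were few. Parabola 3 against parabola 1 gave 3 called members, 1 higher (CYP71B29) and 2 lower (CYP718 and UGT76C1), beside 1.72% of all genes (0.761% higher and 0.961% lower). The groups did not overlap for 6 members, beside 7.54% of all genes. Parabola 10 against parabola 3 gave 5, with CYP71B37 higher and UGT73B2, UGT73B4, UGT73B5 and UGT76B1 lower, beside 1.17% of all genes (0.592% higher and 0.574% lower), and 10 did not overlap, beside 9.67%. Parabola 10 against parabola 1 gave 7, 2 higher and 5 lower, beside 3.56% of all genes (1.73% higher and 1.82% lower), and 16 did not overlap, beside 14.7%. CYP71B29 and CYP71B37 rose by 1.07 and 0.93, while UGT73B2, UGT73B4, UGT73B5, UGT73C7 and UGT87A2 fell by 0.57, 1.18, 1.01, 1.08 and 0.66.

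UGT73C7, which acts on hydroxycinnamic acids, was called between parabola groups but in no single contrast against level flight, although it passed the F-test (adjusted p = 0.0314). It read 3.97, 3.23, 4.55 and 3.88 in level flight, 4.27, 4.71, 4.12 and 3.66 at parabola 1, 4.44, 3.66, 3.84 and 4.32 at parabola 3, and 2.97, 3.13 and 3.25 at parabola 10. The parabola 10 arrays lay below all parabola 1 arrays but overlapped level flight (-0.79, adjusted p = 0.0513). Leaving out parabola 1 array 1, 2 or 3 or parabola 10 array 1 or 2 ended the call against parabola 1.

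The median over the rows with no gene in the annotation also moved with the groups, with means of 3.86 ± 0.04 in level flight, 3.97 ± 0.04 at parabola 1, 3.84 ± 0.09 at parabola 3 and 3.75 ± 0.09 at parabola 10 (SD). With that median as a covariate in limma, calls fell from 7 to 0 for parabola 10 against parabola 1, with 6 at an unadjusted p under 0.05, and from 3 to 0 for parabola 3 against parabola 1, with 12 at an unadjusted p under 0.05. Over all 16550 genes, calls fell from 589 to 3 and from 285 to 52 in the same contrasts, so the loss was not particular to these genes. The fitted differences between parabola 10 and parabola 1 moved unevenly. For UGT73B4 it was -1.22 with the covariate and -1.18 without, and for CYP71B37 0.80 and 0.93, while for UGT73C7 it was -0.34 and -1.08, for UGT73B5 -0.60 and -1.01, and for CYP71B29 0.74 and 1.07. The standard errors were larger with the covariate, at 0.27 against 0.16 for UGT73B4. From parabola 1 to parabola 3 the differences with the covariate were 0.70 for CYP71B29, -0.79 for CYP718 and -0.38 for UGT76C1.

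Against level flight, calls with this covariate went from 10 to 6 at parabola 1, remained 15 in number at parabola 3 and went from 17 to 11 at parabola 10. Over all genes, calls went from 1378 to 916, from 1850 to 1787 and from 2423 to 1336 in the same order. At parabola 1 the calls of UGT71D1 (0.33, adjusted p = 0.264) and CYP71B32 (0.49, adjusted p = 0.186) were lost. So were those of CYP71B37 (0.51, adjusted p = 0.0865) and UGT73B1 (-0.42, adjusted p = 0.0743). The 11 at parabola 10 were UGT73B2, UGT73B3, UGT73B4, UGT73B5, UGT72E1, UGT71C1, UGT71D1, UGT85A2, CYP71B29, CYP71B34 and CYP71B37. The 6 that lost the call at parabola 10 kept their direction. With the covariate UGT73B1 differed by -0.42 (adjusted p = 0.0789), UGT89B1 by -0.62 (adjusted p = 0.165) and UGT87A2 by -0.58 (adjusted p = 0.106). UGT72B3 differed by 0.50 (adjusted p = 0.108), UGT85A3 by 0.33 (adjusted p = 0.252) and UGT71B5 by 0.65 (adjusted p = 0.0692).

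Calls were more frequent where the signal was stronger. Of the 29 P450 and UGT genes above the median signal of all tested genes, 16 were called in at least 1 contrast against level flight, beside 30.5% of all genes above it. Of the 48 below it, 7 were called, beside 9.40% of all genes below it. P450 genes were mostly in the dim part, with 21 of 26 below the median, as were 27 of 51 UGT genes. All 10 genes called lower at parabola 10 lay above the median. Signals of different probe sets are not on a common scale, and no detection call was used. For a dim gene without a call, no change and an undetected change therefore cannot be told apart.

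**Figure D4:**
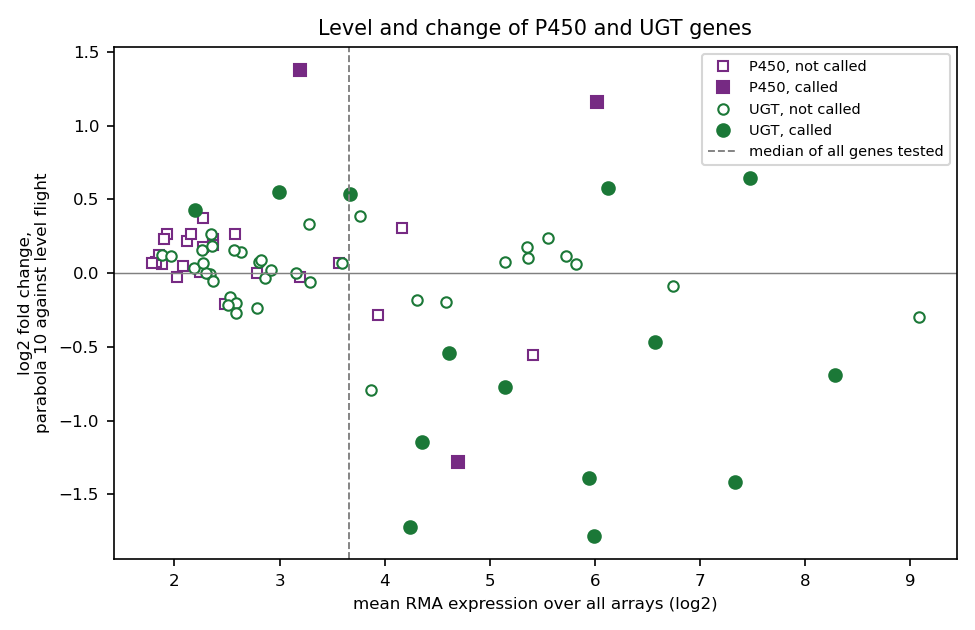
Log2 fold change at parabola 10 against level flight (y axis) by mean RMA signal over all 15 arrays (log2, x axis) for P450 (squares) and UGT genes (circles), filled where called by limma; the dashed line is the median signal of all genes tested, 3.66. All 10 genes called lower lie right of the line, and the falls of over 1 on the log2 scale belong to UGT73B2, UGT73B3, UGT73B4, UGT73B5, UGT72E1 and CYP71B34.

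Gene order shows how called members lie among their neighbours. In the reference annotation, 52 of the 77 genes fall into 18 runs of neighbours, with at most 1 other gene between members. At least 1 call against level flight occurred in 9 runs. Called genes of a run went the same way in the UGT73B pair, the UGT73B trio and the UGT85A run, and opposite ways in 2 runs, those of CYP71B34 with CYP71B37 and of UGT71C1 with UGT71D1. The rows naming several genes that include a UGT, 2 in number, were not called in any contrast against level flight.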

How the data were processed

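Total RNA of 15 root pools was measured on 1 Affymetrix AraGene 1.0 ST array each. The deposited values are log2 expression per probe set; TAIR10, R 4.0.0 and the tools limma, oligo and RMA appear, without roles, in the submitters' processing notes. Of 38408 rows, 16722 had exactly 1 gene in the platform annotation, giving 16550 genes after the row with the highest mean was kept, with no filter on dim signal. Names were checked against the TAIR10.1 reference table, used for names and gene order only, and 79 of 79 genes matched.

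Group means of all 15 arrays were fitted with limma 3.58.1 in R 4.3.3 (lmFit, eBayes), with 6 two-sided contrasts and an F-test over the 3 against level flight. Benjamini-Hochberg adjustment ran over all 16550 genes within a contrast, and genes under 0.05 were called. The number of arrays limits the precision. The fit was tested on simulated data. The members, lists and rules were chosen with earlier results of these data known. Values in every array are given for called members whose groups did not overlap, taking the largest rises and falls; beside these, up to 4 members and 3 other genes per list are named by smallest F-test p, and the largest changes between parabola groups. The values named for other members were chosen after they had been seen. Alternatives were other scalings, a filter on dim genes, all rows, eBayes with trend and robust options, the replicate number as a block, a covariate, a stricter threshold, 2-group fits and leaving out each array.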

Additional observations from a re-analysis of the deposited data

Results flagged for a closer look

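Values in 78 groups of 4 arrays from 26 named or called genes were checked for an array far from the others of its group, and 4 groups (5.13%) held one, where the 95% critical value used flags about 1 in 20 groups by chance. UGT71D1 read 5.67 in the first level flight array against 5.84 to 5.86 in the others. UGT87A2 read 9.01 in the third level flight array against 8.28 to 8.34. UGT76C1 read 4.98 in the third level flight array against 5.17 to 5.19. CYP71B37 read 2.81 in the first parabola 1 array against 3.19 to 3.25. In data outside the main measurement, the second row of UGT85A4, which was left out because it was dimmer, gave a difference of 0.42 at parabola 10 against level flight (adjusted p = 0.0494 in limma), where the kept row gave 0.33 and no call.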

How the results depend on the processing

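Of 32 results on named genes, 13 kept their call in every alternative run and 19 lost it in at least 1. All 32 were called results whose groups did not overlap, which was a condition of choice only for those against level flight. Leaving out an array could therefore not change their sign, and 0 changed it in any alternative. Against level flight, each gene entered with its contrast of largest change, so its weaker contrasts were not among the 32. Counts of called genes at parabola 1 went from 10 to 6 with all rows tested, 6 with the covariate and 5 at an adjusted p of 0.01. At parabola 3 they went from 15 to 7 at 0.01, and at parabola 10 from 17 to 11 with the covariate. The F-test count went from 21 to 11 at 0.01. For parabola 3 against parabola 1 the count of 3 became 1 with all rows, 1 with the replicate block, 1 with the arrays of the 2 groups alone, 0 with the covariate (12 at an unadjusted p under 0.05) and 0 at 0.01 (17 at an unadjusted p under 0.05). For parabola 10 against parabola 3 the count of 5 became 3 with the covariate and 2 with the 2 groups alone, and for parabola 10 against parabola 1 the count of 7 became 0 with the covariate (6 at an unadjusted p under 0.05) and 4 at 0.01. Over all genes at parabola 1, 1378 calls became 916 with the covariate and 2548 of 38408 with all rows. For parabola 10 against parabola 3, 193 calls over all genes became 58 with the covariate and 69 with the 2 groups alone. Leaving out 1 array at a time gave 5 to 12 at parabola 1, 9 to 15 at parabola 3, 15 to 19 at parabola 10, 1 to 3, 4 to 5 and 4 to 8 between parabola groups in the order above, and 17 to 22 in the F-test. The parabola 1 count was 5 without level flight array 1 and 6 without level flight array 2 or parabola 1 array 2, 3 or 4, and the parabola 3 count was 9 without level flight array 3. The parabola 10 against parabola 1 count was 4 without parabola 1 array 2 or 3 or parabola 10 array 2, and the parabola 3 against parabola 1 count was 1 without parabola 1 array 1 or 2 or parabola 3 array 3 or 4. Replicate numbers did not pair the arrays, since 1 of 21 same-number pairs correlated over 0.1 (range -0.08 to 0.11). The block moved no other count by over 1.5 times. Using the other row of genes with 2 rows and counting the cyclophilins, both added after seeing the data, moved no count by over 1.5 times. The causes of these shifts were not tested beyond the fewer calls that a stricter threshold or more tests give.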
